A study of Mus musculus with 21 samples.

Results

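Light zone (LZ) and dark zone (DZ) germinal centre B cells of control mice were compared across all genes in 8 of the 21 samples of the series, 4 libraries per zone. The members were chosen by their labels alone. All 8 libraries came from C57BL/6 mice of genotype CD79a+/+Ptbp1fl/fl, which carry loxP-flanked alleles of Ptbp1 (an RNA-binding splicing regulator) and no Cre gene, so both zones share the floxed alleles. The mice had been immunised with NP-KLH, a hapten coupled to a carrier protein, in alum, and spleens were taken 7 days later. Cells bearing IgD, CD3e, Gr1 or Ter119 were depleted, and the remaining cells of 3 to 5 mice of 1 sex were pooled and flow sorted, so each library is a pool and not an animal. Each of the 4 pools gave 1 LZ and 1 DZ library on its own sort day. Pools 1 and 2 were male and pools 3 and 4 female. Sort day and sex therefore cannot be told apart. Neither the ages of the mice nor the surface markers that separated the zones are known from the labels. For a single contrast outside the control mice, the 8 libraries of CD79acre/+Ptbp1fl/fl mice (cKO) were used, in which a Cre gene at 1 Cd79a allele deletes Ptbp1 in the B lineage. They were immunised, pooled and sorted in the same way.

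Germinal centres form in B cell follicles after immunisation. In the dark zone, B cells divide and mutate their antibody genes. In the light zone they test the mutated receptor against antigen held on follicular dendritic cells, present antigen to T follicular helper cells, and either die, leave as memory or plasma cells, or return to the dark zone. Signals through the B cell receptor and CD40 reach NF-kB and MYC in the light zone, and the chemokine receptor CXCR4 guides cells to the dark zone.

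Counts assigned to genes summed to 29412815 to 32719023 per control library. B lineage markers were abundant, at 12036 to 12826 CPM (library-size-normalised counts, scaled by TMM) summed over 7 genes in LZ and 9463 to 10275 CPM in DZ libraries. Germinal centre markers summed to 1867 to 2342 and 2461 to 2853 CPM. Some libraries stood apart in genes of other cells. Both libraries of pool 2 held more macrophage RNA (407 CPM in LZ and 427 CPM in DZ, against 27.3 to 73.6 CPM in the other 6, summed over the marker list), and DZ library 3 held 6.87% of its counts on immunoglobulin genes, against 2.13% to 3.15% elsewhere. T cell markers were low in all, summing to 101 to 324 CPM in LZ and 24.4 to 164 CPM in DZ libraries, with 10 of 13 called higher in LZ and none in DZ. Their part in the results below was not tested. In such bulk libraries, fewer cells of a type and less RNA per cell cannot be told apart.

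Of 14301 genes tested, 2264 (15.8%) differed between the zones at an adjusted p under 0.05 in edgeR's quasi-likelihood test with the pool as a block, and such genes are called below. The calls were split between 1185 genes higher in LZ (8.29%) and 1079 higher in DZ (7.54%). All 4 pools moved in the same direction for 2262 of them. Most differences were small, with a median of 1.47-fold among the called genes, and 484 genes (3.38%) were called and differed at least 2-fold, 295 of them higher in LZ. A fold of 4 or more was reached by 51 genes in LZ and 44 in DZ. In 2206 genes (15.4%) the 4 libraries of one zone all lay above the 4 of the other, LZ above DZ in 8.1% of tested genes and DZ above LZ in 7.33%. The share called rose with abundance, from 2.95% of genes at a mean log2 CPM of 2 or less to 45.8% above 8, as the median standard error (SE) fell from 0.563 to 0.0539. The number of calls depended on the number of pools. It was 1374 without pool 2, 1716 without pool 3, 1385 without pool 1 and 1253 without pool 4. Every called gene that those fits tested kept its direction, though they reuse libraries that gave the calls. For 5467 genes (38.2%) the 95% interval of the log2 fold change lay within 0.5 on either side of 0, so a difference larger than that was outside the interval.

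**Figure D1:**
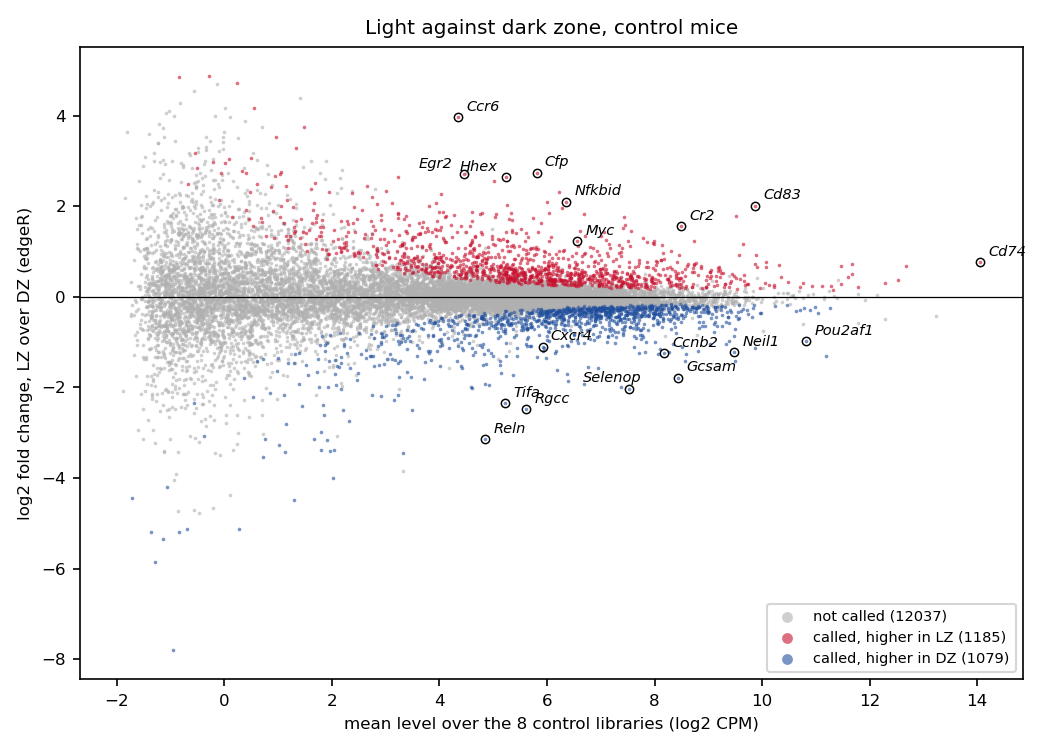
Log2 fold change (LZ over DZ, edgeR) of each of the 14301 tested genes against its mean level over the 8 control libraries (log2 CPM). Red points are the 1185 genes called higher in LZ, blue points the 1079 called higher in DZ and grey points the rest. Called genes spread on both sides, and the few largest changes at moderate or high abundance are Ccr6, Egr2 and Cfp in LZ and Reln, Rgcc and Tifa in DZ.

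The most abundant of the genes called at 4-fold or more was Cd83 (chr13:43785112-43803133, GRCm38.p6), an activation marker that stabilises MHC class II at the surface. Its level was 1642, 1479, 1394 and 1501 CPM in LZ libraries 1 to 4 and 371, 383, 389 and 343 CPM in DZ libraries 1 to 4. The groups were far apart and each tight, at 1504 ± 103 against 372 ± 20.5 CPM (mean ± SD, n = 4), a log2 fold change of 2.02 ± 0.06 (SE, adjusted p = 5.41e-05). Cd86, a costimulatory ligand for T cells, was 369.9, 314, 364 and 361 CPM in LZ and 169, 146, 164 and 148 CPM in DZ libraries, 2.25-fold higher in LZ (adjusted p = 9.06e-05). The chemokine receptor gene Cxcr4 (chr1:128588199-128592299) lay on the other side, at 34.7, 34.96, 42.5 and 41.8 CPM in LZ and 76.4, 78.8, 85.5 and 88.2 CPM in DZ libraries. No LZ library reached any DZ library, and the log2 fold change was -1.10 ± 0.07 (adjusted p = 0.000167). CXCR4, CD83 and CD86 are proteins commonly used to sort the zones. As the gate is not known here, these genes may be the sorting criterion and are given as a check of the labels, not as findings.

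**Figure D2:**
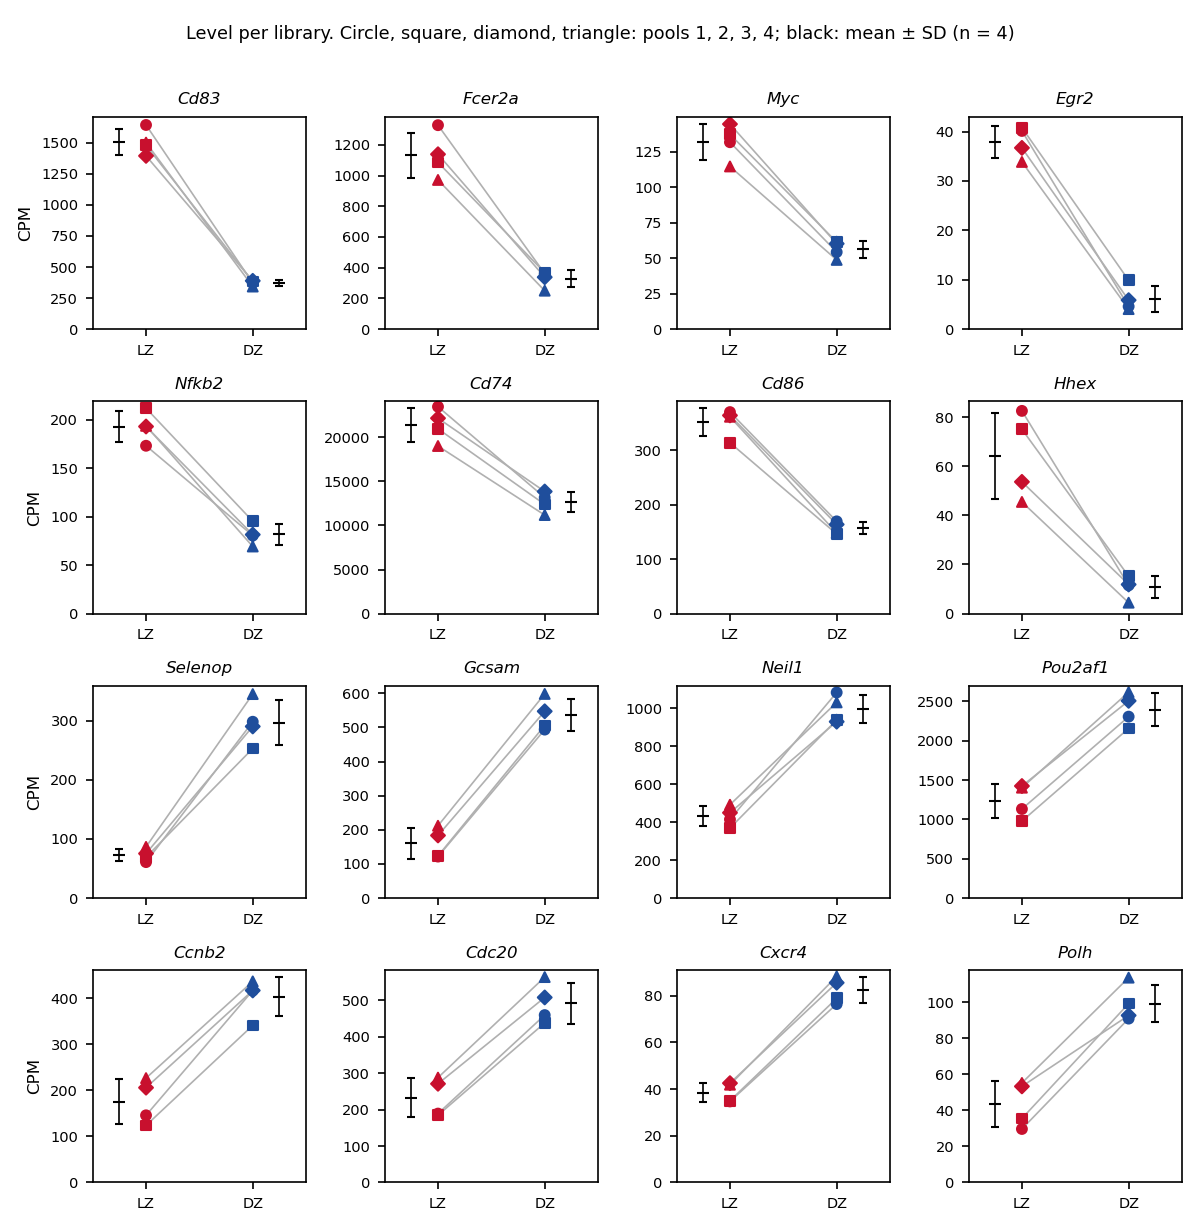
Level (CPM, linear axis from 0) of 16 genes in the LZ (red) and DZ (blue) library of each control pool, joined by a grey line; circle, square, diamond and triangle are pools 1, 2, 3 and 4, and the black bar beside each group is mean ± SD (n = 4). Cd83, Fcer2a, Myc, Egr2, Nfkb2, Cd74, Cd86 and Hhex fall from LZ to DZ in every pool, and the other 8 genes rise in every pool.

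Genes compiled from earlier studies as typical of either zone mostly followed their lists. The lists hold Cd83, Cd86 and Cxcr4, which may be the sorting criterion, and were chosen with earlier results of these data known. Many of the dark zone genes are mitotic and are counted again below. Of 33 tested light zone genes, 27 were called higher in LZ and 1 in DZ, with a median log2 fold change of 1.25. All 27 tested dark zone genes had lower values in LZ, 26 of them called (median -0.73). The median over all tested genes was 0.01. Gadd45b, a stress-induced gene often placed among light zone genes, was the exception in the first list, at 142, 146, 143 and 159.5 CPM in LZ and 254, 219, 238 and 246 CPM in DZ libraries. It was 1.62-fold higher in DZ in these cells (adjusted p = 0.000544), with no overlap of the groups. In the dark zone list the gene not called was Top2a, a DNA topoisomerase of dividing cells (-0.27 ± 0.08, adjusted p = 0.0593).

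**Figure D3:**
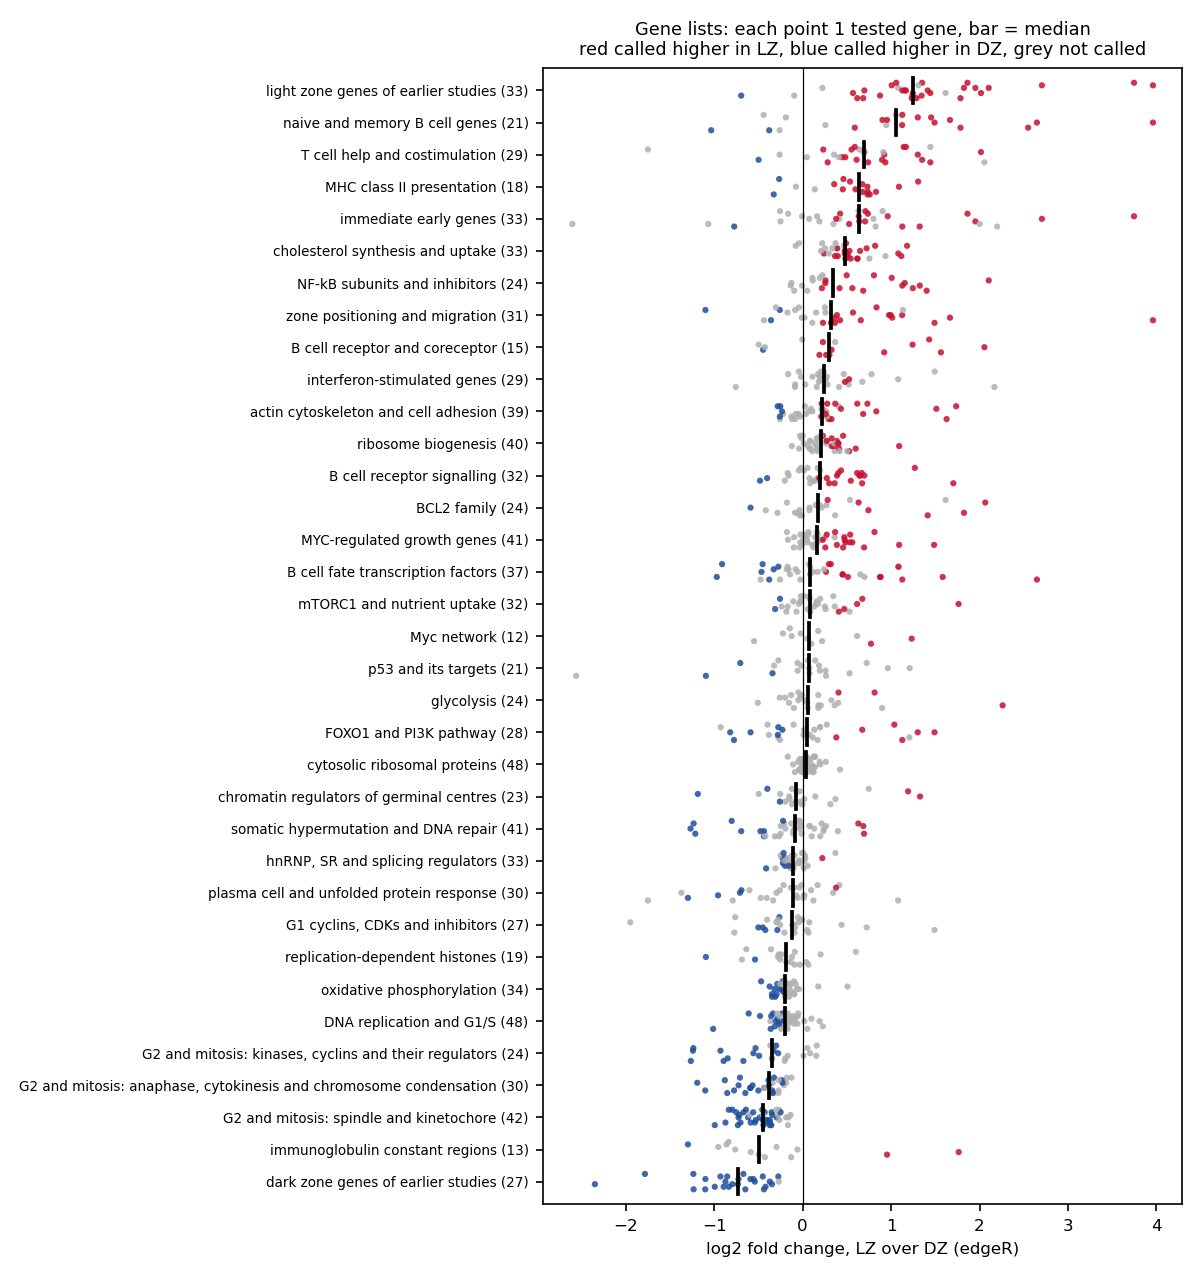
Log2 fold change (LZ over DZ, edgeR) of the tested members of 35 gene lists, ordered by their medians (black bars), with the number tested in parentheses; red points were called higher in LZ, blue points higher in DZ and grey points were not called. The light zone list has its median at 1.25 and the dark zone list at -0.73, and the 48 ribosomal protein genes lie close to 0.

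Positioning and migration genes were more often higher in LZ. Of 31 tested members, 16 were called higher in LZ and 3 in DZ, against 8.29% and 7.54% of all tested genes. The 3 include Cxcr4, which may be the sorting criterion. Ccr6, the receptor for CCL20 and a marker of memory precursors, had the largest fold among genes of at least moderate abundance. It was 55.1, 48.2, 28.2 and 19.1 CPM in LZ and 1.44, 5.17, 4.86 and 0.279 CPM in DZ libraries (3.96 ± 0.54, adjusted p = 0.00355). Even the lowest LZ library was far above the highest DZ library. Cxcr5, which directs B cells to the follicle and light zone, was 375, 374, 390.0 and 341 against 206, 218, 201 and 204 CPM, 1.78-fold higher in LZ (adjusted p = 0.000167). Gpr183 (EBI2), an oxysterol receptor that draws cells to the follicle edge, was 49.3, 68.5, 48.4 and 42.9 against 23.8, 26.01, 25.4 and 19.7 CPM, 2.18-fold higher in LZ (adjusted p = 0.000743). Opposed to these was S1pr2, a sphingosine phosphate receptor that confines cells to the germinal centre, at 484, 466, 515 and 573 CPM in LZ and 554, 606, 602 and 673 CPM in DZ libraries. Its 1.20-fold higher level in DZ (adjusted p = 0.0125) was small, the groups overlapped, and the call was lost without pool 4 (adjusted p = 0.0546) and without the pool block (adjusted p = 0.119). In fits without 1 pool, the number of the 31 genes called higher in LZ was 11 without pool 1 to 15 without pool 2. The number higher in DZ was 1 without pool 4 and 1 without the pool block.

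Surface genes that receive T cell help were mostly higher in LZ. Of 29 tested, 18 were called higher in LZ and 1 in DZ (median 0.69), against 8.29% and 7.54% of all tested genes. The 18 include Cd83 and Cd86, which may be the sorting criterion. The count higher in LZ with 1 pool left out was 12 without pool 1 or 4 to 15 without pool 2 or 3. Cd40, the receptor for CD40 ligand on helper T cells, was 171, 156, 139 and 137 CPM in LZ and 70.02, 63.9, 54.1 and 49.3 CPM in DZ libraries. Its log2 fold change was 1.35 ± 0.06 (adjusted p = 9.06e-05), and the lowest LZ value was well above the highest DZ value. Slamf1, a receptor that binds itself between B and T cells, was 191, 201, 209 and 181 against 80.6, 77.6, 71.6 and 59.4 CPM, 2.72-fold higher in LZ (adjusted p = 9.83e-05). A relative in the same family, Slamf6, was the called gene higher in DZ, at 149, 147, 149 and 152 CPM in LZ and 222, 199, 219 and 203 CPM in DZ libraries (-0.50 ± 0.05, adjusted p = 0.00146). Il7r, Icosl and the interleukin receptor genes Il2rb and Il21r were also among those called higher in LZ. The call of Il7r was lost without pool 1 (adjusted p = 0.0547), pool 4 (0.0584) or the block (0.628). Some of these are expressed by T cells too, whose marker sums given above were higher in LZ. Cd3e, which defines T cells, was at 13.5, 45.5, 20.6 and 10.6 CPM in LZ and 6.05, 17.9, 6.67 and 2.98 CPM in DZ libraries, and its part in this list was not tested.

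Antigen presentation by MHC class II was among the most uniform differences, with 14 of 18 genes called higher in LZ and 2 in DZ (median 0.64). Cd74, the invariant chain that guides MHC class II to endosomes, was 23479, 20974, 22174 and 19019 CPM in LZ and 13174, 12391, 13857 and 11184 CPM in DZ libraries. It was already among the most abundant messages in DZ cells and stood 1.69-fold higher in LZ (adjusted p = 9.06e-05). H2-Ab1, a chain of the I-A molecule, was 1.60-fold higher in LZ (adjusted p = 0.000106), from 5048 ± 351 CPM in DZ to 8050.3 ± 380.0 CPM in LZ. The largest changes were in accessory genes. Ifi30, a lysosomal thiol reductase for antigen processing, was 355, 321, 313 and 270.2 against 145, 117, 143 and 106 CPM (1.31 ± 0.06, adjusted p = 9.06e-05), and H2-Oa, which limits peptide exchange, was 226, 198, 187 and 173 against 109.6, 86.2, 101 and 73.7 CPM (1.09 ± 0.07, adjusted p = 0.000185). March1, a ubiquitin ligase that removes MHC class II and CD86 from the surface, went the other way, at 123, 137, 108 and 126 CPM in LZ and 163, 159, 145 and 150.2 CPM in DZ libraries (-0.33 ± 0.06, adjusted p = 0.0125). That call was lost without pool 1 (adjusted p = 0.051).

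Most coreceptors of the B cell receptor were higher in LZ, 10 of 15 tested genes being called higher in LZ and 1 in DZ. Cr2 (CD21), a complement receptor beside the B cell receptor, was 579.9, 553, 493 and 537 CPM in LZ and 185, 207, 164 and 177 CPM in DZ libraries. Within each zone its values were close, and LZ was 2.96-fold higher (adjusted p = 5.41e-05). Cd72, an inhibitory coreceptor, was 409.8, 412, 303 and 297 against 151, 184, 149 and 118 CPM, 2.37-fold higher in LZ (adjusted p = 0.000139). Cd24a, a glycolipid-anchored surface protein, was the gene called higher in DZ (-0.45 ± 0.04, adjusted p = 0.000584). Among 32 signalling genes, 16 were called higher in LZ and 2 in DZ. The former number was 10 without pool 2 to 13 without pool 4. The 2 called higher in DZ were the kinase gene Syk and the adaptor gene Dok3. Syk was not called without pool 2 (adjusted p = 0.0581) or without the block (0.0855). The phosphatase gene Ptpn6 (SHP-1) was 1547, 1538, 1566 and 1629.8 CPM in LZ and 899.9, 971, 986 and 1019 CPM in DZ libraries (0.70 ± 0.04, adjusted p = 0.00013). The adaptor gene Bank1 was 615, 566, 547 and 563 against 382, 365, 345 and 345 CPM (0.67 ± 0.04, adjusted p = 0.00015), and the adaptor gene Sh3bp2 was 3.26-fold higher in LZ (adjusted p = 0.00013).

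Early response genes, which antigen and CD40 signals induce within minutes in B cells, had 15 of 33 tested members called higher in LZ and 1 in DZ (median 0.63). Egr2, a zinc finger factor of this class, was 40.1, 40.8, 36.7 and 33.9 CPM in LZ and 4.61, 9.90, 5.88 and 4.07 CPM in DZ libraries. All LZ libraries were at least 3 times the highest DZ library, DZ library 2, and the log2 fold change was 2.70 ± 0.20 (adjusted p = 0.000293). Egr1, its close relative, was 142, 146, 102 and 102 against 26.2, 52.1, 27.2 and 25.5 CPM (1.95 ± 0.15, adjusted p = 0.000304), again with DZ library 2 above the other DZ libraries. The nuclear receptor gene Nr4a1, used as a reporter of B cell receptor signalling, was 42.2, 51.2, 28.5 and 23.6 against 6.23, 27.4, 9.05 and 5.09 CPM (1.86 ± 0.29, adjusted p = 0.0059). Its groups overlapped through DZ library 2, and the call was lost without the pool block (adjusted p = 0.0908). Dusp5, a phosphatase of ERK kinases, was the member called higher in DZ, at 50.5, 38.2, 42.6 and 62.6 CPM in LZ and 102, 75.5, 66.9 and 85.3 CPM in DZ libraries (-0.77 ± 0.11, adjusted p = 0.00435).

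Of 24 NF-kB subunits, inhibitors and regulators, 15 were called higher in LZ and none in DZ (median 0.34), and 4 had lower values in LZ without being called. With 1 pool left out, it was 9 without pool 1 or 2 to 12 without pool 4. Nfkb2 (chr19:46300994-46312400), the precursor of the p52 subunit, was 173, 212, 193 and 194 CPM in LZ and 80.5, 95.3, 81.5 and 69.2 CPM in DZ libraries. The zones did not overlap, and LZ was 2.37-fold higher (adjusted p = 0.000139). Relb, the partner of p52, was 114, 103, 89.6 and 78.4 against 29.5, 46.1, 39.7 and 38.3 CPM (1.32 ± 0.15, adjusted p = 0.00182). Genes for inhibitors rose too. Nfkbid, a nuclear IkB protein, was 179, 151, 110.2 and 88.3 CPM in LZ and 39.4, 46.03, 24.7 and 16.99 CPM in DZ libraries, 4.30-fold higher in LZ (adjusted p = 0.000106). Nfkbia, the classical IkB alpha, was 2.18-fold and Bcl3, an atypical IkB protein that binds p52, 2.64-fold higher in LZ (adjusted p = 0.000209 and 0.000171). Rel (c-Rel), a subunit needed to maintain germinal centres, changed less, at 152, 140.3, 109 and 136 against 93.9, 88.2, 72.3 and 78.7 CPM (0.68 ± 0.06, adjusted p = 0.000608).

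Promoter sequences of NF-kB genes called higher in LZ are shown because NF-kB sites are well described at these genes. The sequences are RefSeq's for GRCm38.p6, 120 bases before to 25 after an annotated start, with matches to the kappaB motif in capitals on either strand. Overlapping matches are joined.
Nfkb2 promoter: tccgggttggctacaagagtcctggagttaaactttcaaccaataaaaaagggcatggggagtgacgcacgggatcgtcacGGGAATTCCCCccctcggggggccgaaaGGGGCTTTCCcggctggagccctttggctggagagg
Nfkbia promoter: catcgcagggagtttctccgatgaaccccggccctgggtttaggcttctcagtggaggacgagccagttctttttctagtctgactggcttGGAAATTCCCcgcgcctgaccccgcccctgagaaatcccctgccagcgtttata
Bcl3 promoter: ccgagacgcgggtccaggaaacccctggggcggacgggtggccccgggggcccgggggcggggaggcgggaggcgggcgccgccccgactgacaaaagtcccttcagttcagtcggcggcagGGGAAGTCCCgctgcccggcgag
Rel promoter: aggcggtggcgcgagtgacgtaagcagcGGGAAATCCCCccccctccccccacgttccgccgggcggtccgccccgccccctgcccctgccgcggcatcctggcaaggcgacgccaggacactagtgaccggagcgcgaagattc
The Nfkb2 stretch (chr19:46304617-46304761, plus strand) belongs to 1 of its 3 annotated starts and holds 3 matches, 2 of them overlapping. Nfkbia (chr12:55492623-55492767, minus strand) and Bcl3 (chr7:19822731-19822875, minus strand) hold 1 match each, and Rel (chr11:23770945-23771089, minus strand) holds 2 that overlap. In the window from 250 bases before to 50 after the start, 8 of the 12 called NF-kB genes with a sequence (of 15 called) had a match, or 66.7%. Among the 9 members not called, 7 had a sequence and 2 of these (28.6%) had a match. The share was 9.54% over the 912 genes with a window among the 1185 called higher in LZ, and 5.14% over all 27025 genes with such a window. Sequences were too incomplete in the uncalled members and in the genes called higher in LZ for more than a description. Genes can have several windows, and any match counted. A match describes the letters and does not show binding.

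Myc, the growth regulator that marks positively selected cells, was 132, 137, 145 and 115 CPM in LZ and 54.4, 61.4, 60.3 and 48.8 CPM in DZ libraries. The zones were separate in every pool, with a log2 fold change of 1.23 ± 0.06 (adjusted p = 9.06e-05). Of the other 11 tested genes of its network, the antagonist Mxd4 was also called, 1.71-fold higher in LZ (adjusted p = 0.00222). With Myc included, the network's 16.7% called was near the 15.8% of all tested genes. Most genes downstream of MYC had smaller differences than Myc itself, with Slc19a1 an exception. Of 41 genes known to be induced by MYC, 16 were called higher in LZ and none in DZ, with a median of 0.16. This number dropped when 1 pool was left out, to 8 without pool 2 to 11 without pool 3 or 4. Slc19a1, the folate carrier, had the largest difference, at 29.6, 22.6, 20.5 and 22.5 against 6.33, 9.78, 8.43 and 9.44 CPM (1.49 ± 0.20, adjusted p = 0.0032). Gnl3 (nucleostemin) was 53.1, 57.6, 65.8 and 57.5 CPM in LZ and 30.8, 32.2, 37.6 and 32.7 CPM in DZ libraries, 1.76-fold higher in LZ (adjusted p = 0.000695). Ribosome biogenesis genes were similar, 13 of 40 being called higher in LZ and none in DZ (median 0.20), and with 1 pool left out 4 without pool 2 to 8 without pool 1 or 4. Polr1b, a subunit of RNA polymerase I, was 2.13-fold higher in LZ (adjusted p = 0.00494). None of 48 cytosolic ribosomal protein genes was called in edgeR, and for 43 of them the 95% interval lay within 0.5 of 0.

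Cholesterol and fatty acid genes were a further group raised in LZ. Of 33 tested genes, mostly for cholesterol synthesis and uptake and some for fatty acids or efflux, 21 were called higher in LZ and none in DZ (median 0.48). With 1 pool left out, the number was 12 without pool 1 to 18 without pool 3. Scd1, a desaturase that makes monounsaturated fatty acids, was 384, 363, 328 and 323 CPM in LZ and 161, 170.0, 144 and 142 CPM in DZ libraries, 2.27-fold higher in LZ (adjusted p = 6.65e-05). Each LZ library exceeded each DZ library. Among other metabolic lists, glycolysis had 3 of 24 genes called higher in LZ and none in DZ, and 1 without pool 2. Its 12.5% called was below the 15.8% of all tested genes, and its median was 0.06. The largest difference was in Aldoc (aldolase C), at 36.1, 21.4, 28.99 and 21.2 against 8.40, 5.50, 5.45 and 3.51 CPM (2.26 ± 0.15, adjusted p = 0.000196). Oxidative phosphorylation had 12 of 34 genes (35.3%) called higher in DZ and none in LZ (median -0.20). With 1 pool left out, that number was 5 without pool 4 to 8 without pool 3. Sdhb, a subunit of complex II, was 323, 287, 314 and 309.8 CPM in LZ and 452, 382, 437 and 439 CPM in DZ libraries, 1.38-fold higher in DZ (adjusted p = 0.000768).

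Dark zone cells carried more mRNA of mitotic genes. In G2 and mitosis, 14 of 24 kinases, cyclins and regulators, 32 of 42 spindle and kinetochore genes and 20 of 30 genes of anaphase, cytokinesis and condensation were called higher in DZ, and none in LZ. Their medians were -0.35, -0.45 and -0.38. With 1 pool left out, the first count was 9 without pool 2 to 12 without pool 3, the second 21 without pool 1 or 2 to 31 without pool 3 and the third 12 without pool 4 to 21 without pool 3. Without the pool block they were 6, 12 and 9. Cdc25b, the phosphatase that starts activation of CDK1, was 183, 208, 244 and 266 CPM in LZ and 496, 479, 540.3 and 641 CPM in DZ libraries. The zones were well separated, and DZ was 2.40-fold higher (adjusted p = 9.06e-05). Ccnb2 (cyclin B2) was 146, 124, 206 and 226 against 416, 341, 416 and 436 CPM (-1.24 ± 0.11, adjusted p = 0.000566), and Nek2, a centrosome kinase, 95.8, 101, 148 and 162 against 257, 275, 280.5 and 363 CPM (-1.24 ± 0.09, adjusted p = 0.000306). Cdc20, the activator of the anaphase-promoting complex, was 189, 185, 271 and 288 CPM in LZ and 459, 438, 508 and 564 CPM in DZ libraries (-1.10 ± 0.08, adjusted p = 0.000211). Mitotic transcripts were thus still plentiful in LZ libraries. Hmmr, a spindle protein, was 1.99-fold, Cenpf, a kinetochore protein, 1.83-fold, Ube2c, a ubiquitin-conjugating enzyme of anaphase, 1.81-fold and Cenpa, the centromeric histone, 1.78-fold higher in DZ (adjusted p = 0.00232, 0.00135, 0.000722 and 0.00177).

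Promoters of mitotic genes called higher in DZ are shown because they are known for the CHR, a 6-letter element (TTTGAA) through which cell cycle complexes act on late cell cycle genes. The stretches are RefSeq's for GRCm38.p6, 120 bases before to 25 after the start, with TTTGAA (or its reverse complement) in capitals.
Cdc20 promoter: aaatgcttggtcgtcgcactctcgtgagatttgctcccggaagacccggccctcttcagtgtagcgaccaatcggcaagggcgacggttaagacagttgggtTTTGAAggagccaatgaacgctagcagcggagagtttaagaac
Ccnb2 promoter: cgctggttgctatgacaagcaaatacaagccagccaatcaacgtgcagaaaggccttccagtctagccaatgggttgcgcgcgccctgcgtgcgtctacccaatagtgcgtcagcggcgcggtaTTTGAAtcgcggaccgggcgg
Cenpf promoter: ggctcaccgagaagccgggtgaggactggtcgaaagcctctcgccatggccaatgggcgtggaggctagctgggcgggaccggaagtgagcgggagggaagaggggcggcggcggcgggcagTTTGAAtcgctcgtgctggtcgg
Ube2c promoter: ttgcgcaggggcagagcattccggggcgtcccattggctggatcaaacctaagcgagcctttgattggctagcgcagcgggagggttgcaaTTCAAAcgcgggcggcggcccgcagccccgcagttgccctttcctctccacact
Hmmr promoter: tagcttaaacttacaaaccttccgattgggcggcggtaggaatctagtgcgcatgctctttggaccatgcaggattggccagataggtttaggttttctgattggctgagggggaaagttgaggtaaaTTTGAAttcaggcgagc
They lie at chr4:118437319-118437463, minus strand (Cdc20), chr9:70421530-70421674, minus strand (Ccnb2), chr1:189688062-189688206, minus strand (Cenpf), chr2:164769809-164769953, plus strand (Ube2c) and chr11:40733413-40733557, minus strand (Hmmr). In each, the element begins close to the start, from 29 bases before it in Ube2c to 9 bases after it in Hmmr. Of 66 called genes in the 3 lists, 53 had a sequence, and 35 of these (66%) held TTTGAA in the window of 250 bases before to 50 after the start. The share over all 27025 genes with a window was 20.2%. The CCAAT box (CCAAT, either strand), another common element of such promoters, was in 40 of the 53 (75.5%), against 41.1% of all genes. Of the 30 members of these lists that were not called, 23 had a sequence, and 15 of the 23 (65.2%) held TTTGAA and 14 (60.9%) the CCAAT box. The CHR was thus about as frequent in uncalled as in called members of the lists. These 23 fall short of the share of genes required for a test of such a property, so the values are only described.

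DNA replication had fewer calls. Of 48 genes of replication and the G1/S step, 13 were called higher in DZ and none in LZ (median -0.20). When 1 pool was left out the number was 5 without pool 1 or 4 to 16 without pool 3, and it was 2 without the pool block. Dbf4, the activating subunit of the CDC7 kinase that fires replication origins, was 76.1, 87.8, 103 and 116 CPM in LZ and 140.4, 138, 139 and 160.2 CPM in DZ libraries (-0.61 ± 0.08, adjusted p = 0.00383). The replication clamp gene Pcna was 317, 278, 368 and 381 against 384, 307, 380.2 and 367 CPM, not called, with a 95% interval of its log2 fold change of -0.25 to 0.04. Its sign turned in the female pools alone (0.015). G1 regulators had 5 of 27 genes called, all higher in DZ, and 2 without pool 4. Their 18.5% called was near the 15.8% of all tested genes. Ccnd3 (cyclin D3), which drives divisions in the dark zone, was 454, 544, 629 and 602 against 728, 698, 790.4 and 812 CPM (-0.45 ± 0.06, adjusted p = 0.0044). Ccnd2 (cyclin D2) was 40.4, 68.6, 33.95 and 30.6 CPM in LZ and 5.48, 26.3, 37.04 and 8.14 CPM in DZ libraries and was not called (1.49 ± 0.44, adjusted p = 0.0618), and DZ library 3 was at the LZ level. Without pool 3, Ccnd2 was called higher in LZ (2.02, adjusted p = 0.00587), and with another pool left out its adjusted p was up to 0.202. DZ library 3 also stood apart in plasma cell markers, and their part in this value was not tested.

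**Figure D4:**
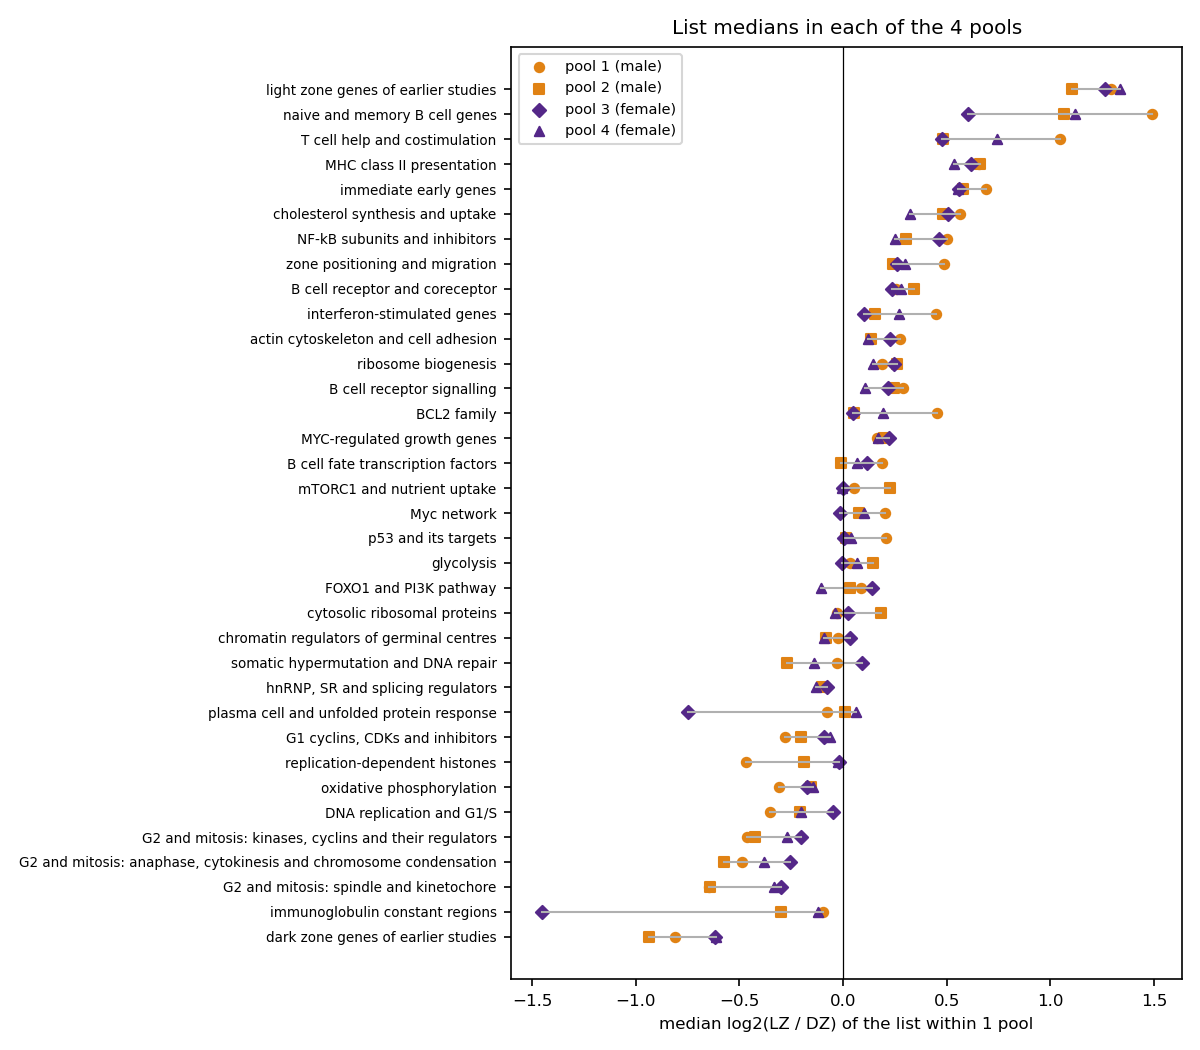
Median log2(LZ / DZ) of each gene list within each of the 4 control pools, orange for male pools 1 and 2 and purple for female pools 3 and 4; the grey line spans the 4 values. The mitotic lists lie below 0 in every pool, from -0.65 to -0.30 for spindle and kinetochore genes, with pools 1 and 2 lowest, and plasma cell and immunoglobulin lists are set apart by pool 3.

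The size of the mitotic difference varied among pools. Spindle and kinetochore genes had medians of -0.65, -0.64, -0.30 and -0.33 in pools 1 to 4, and the anaphase list -0.49, -0.57, -0.26 and -0.38. For Ccnb2, Cdc20 and Hmmr, LZ libraries 3 and 4 were higher than LZ libraries 1 and 2. Pools 1 and 2 were male and 3 and 4 female, on different days. The test of the difference in zone effect between female and male pools called none of 14301 genes, with 493 at an unadjusted p under 0.05. DESeq2 called 3 and the edgeR fit without pool 4 called 6. None of the called genes tested within both sexes had opposite signs in male and female pools. As the genes were called in these same pools, that agreement largely follows from the selection.

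Somatic hypermutation genes had 9 of 41 tested members called higher in DZ and 3 in LZ. With 1 pool left out the former number was 6 without pool 2 to 9 without pool 3, and the latter 0 without pool 1 or 4 to 2 without pool 2. The error-prone polymerase gene Polh was 29.7, 35.5, 53.3 and 55.2 against 90.98, 99.3, 92.8 and 114 CPM (-1.23 ± 0.14, adjusted p = 0.00179). Neil1, a glycosylase of base excision repair, was abundant in DZ cells, at 415, 369, 449.6 and 492 CPM in LZ and 1084, 939, 930.0 and 1032 CPM in DZ libraries. Its 2.32-fold difference (adjusted p = 0.00013) left every DZ library above every LZ library. Lig4, a ligase of double-strand break repair, was 2.41-fold higher in DZ (adjusted p = 0.00525). Ung, which removes uracil from DNA, was 15.5, 14.3, 14.02 and 10.8 against 19.7, 13.4, 14.1 and 15.4 CPM and was not called (95% interval -0.55 to 0.15).

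Transcription factors of B cell fate were mixed, with 12 of 37 called higher in LZ and 7 in DZ. The number in DZ was 4 without pool 4, and without the block the numbers were 7 and 3. Pou2af1 (OCA-B), a coactivator needed for germinal centres, was 1132, 978, 1424 and 1403 CPM in LZ and 2307, 2157, 2507 and 2618 CPM in DZ libraries, 1.96-fold higher in DZ (adjusted p = 0.000139). Foxp1 was 1.37-fold and Tcf3 (E2A) 1.38-fold higher in DZ (adjusted p = 0.00181 and 0.0028). Foxo1, the factor that maintains the dark zone programme, was 275, 283, 213 and 254 against 352, 312, 266 and 308 CPM. The difference was small (-0.27 ± 0.05, adjusted p = 0.0143), the groups overlapped, and it was not called without pool 1 (adjusted p = 0.0552), without pool 4 (0.0651) or without the block (0.191). Bach2, which restrains plasma cell fate, was 311, 291, 204 and 276 against 399, 402, 231 and 389.6 CPM (-0.38 ± 0.06, adjusted p = 0.00818), with both libraries of pool 3 lowest in their group and overlapping groups. Its call was lost without the block (adjusted p = 0.262). On the light zone side, Hhex, a homeobox factor tied to memory B cells, was 82.5, 75.1, 53.6 and 45.5 CPM in LZ and 11.5, 15.2, 11.9 and 4.44 CPM in DZ libraries (2.65 ± 0.20, adjusted p = 0.00031), and Lmo2, a cofactor typical of germinal centre cells, 290.3, 250.1, 266 and 239.9 against 85.5, 83.97, 104 and 76.9 CPM (1.58 ± 0.08, adjusted p = 9.06e-05). Batf was 1.83-fold higher in LZ (adjusted p = 0.00764). Bcl6, the master regulator of germinal centres, was 269.6, 246, 318 and 319 against 281, 315, 339 and 332 CPM and not called (95% interval -0.29 to 0.01), as was Pax5, the B lineage factor (-0.26 ± 0.08, adjusted p = 0.0642). Irf4 was 35.2, 51.4, 30.7 and 34.4 against 9.15, 21.6, 32.9 and 14.7 CPM, with DZ library 3 at the LZ level, and was not called (1.08 ± 0.30, adjusted p = 0.0517). Without pool 3, Irf4 was called higher in LZ (1.46, adjusted p = 0.00364), and with another pool left out its adjusted p was up to 0.168.

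Genes of naive and memory B cells had 13 of 21 tested members called higher in LZ and 2 in DZ, with a median of 1.05. Fcer2a (CD23), a low-affinity IgE receptor abundant on follicular B cells, was 1328, 1085, 1138 and 971 CPM in LZ and 362, 368, 338 and 251 CPM in DZ libraries, 3.44-fold higher in LZ (adjusted p = 5.63e-05). Ccr7, which guides cells toward T cell areas, was 31.99, 54.7, 31.00 and 27.5 against 9.78, 21.5, 11.6 and 5.87 CPM (1.67 ± 0.16, adjusted p = 0.000992), and Bhlhe40, a circadian-type repressor, 65.2, 74.4, 36.2 and 44.4 against 8.37, 12.9, 7.77 and 7.92 CPM (2.55 ± 0.14, adjusted p = 0.000106). Markers of naive follicular B cells as a set (8 genes) summed to 1406 to 1945 CPM in LZ and 428 to 733 CPM in DZ libraries, and 7 of the 8 were called higher in LZ. Their part in these results was not tested. Ighd, the IgD heavy chain gene of naive cells, was 134, 127, 45.7 and 49.6 against 44.1, 57.04, 30.1 and 36.8 CPM. Its LZ values were higher in male pools 1 and 2, the groups overlapped, and the call (adjusted p = 0.0156) was lost without pool 2 (adjusted p = 0.073) and without the block (0.116).

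Survival genes of the BCL2 family had 6 of 24 called higher in LZ and 1 in DZ. Bcl2, the founding anti-apoptotic member, was 29.3, 36.7, 13.3 and 17.3 CPM in LZ and 5.45, 12.8, 3.70 and 3.04 CPM in DZ libraries, low in both zones. The lowest LZ library exceeded the highest DZ library, and the log2 fold change was 2.06 ± 0.20 (adjusted p = 0.000937). Bcl2a1d, a copy of the NF-kB-induced A1 gene, was 67.1, 50.6, 47.1 and 41.4 against 18.9, 16.1, 13.02 and 10.7 CPM (1.82 ± 0.10, adjusted p = 0.000106). The A1 copies are nearly identical, so how reads were divided among them is uncertain. Mcl1, on which germinal centre B cells depend, was 885, 852, 742 and 825 against 825, 872, 826 and 789.9 CPM with a 95% interval of -0.13 to 0.12. Its sign turned without pool 2 (0.003) or pool 3 (0.038).

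Genes of plasma cells were not uniform. Jchain, the joining chain of secreted antibody, was 898, 1214, 1578 and 1319.6 CPM in LZ and 2243, 2571, 6619 and 2182 CPM in DZ libraries, and Slamf7 157, 144, 194 and 178 against 269, 244, 299.7 and 271 CPM. Both were called higher in DZ (-1.30 ± 0.19, adjusted p = 0.00496, and -0.69 ± 0.05, adjusted p = 0.000358). The plasma cell marker set summed to 9120 CPM in DZ library 3 and to 1891 to 3985 CPM in the other 7. Prdm1 (BLIMP-1), which directs plasma cell fate, was 7.01, 9.44, 8.79 and 5.00 against 2.98, 9.16, 18.9 and 3.39 CPM, not called, with its highest value in DZ library 3 and a sign that turned without pool 1 (-0.18) and without the block (-0.18). Of the 30 genes of the secretory list, 4 were called higher in DZ and 1 in LZ, and without pool 3 the counts were 4 and 4. The list's 16.7% called was near the 15.8% of all tested genes.

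The largest changes were taken among called genes with a mean log2 CPM of at least 4 and the same sign in 4 pools, immunoglobulin genes left out. In DZ the 12 leading genes began with Reln (chr5:21884454-22344705), a secreted glycoprotein known from neuronal migration. It was 2.34, 5.06, 6.91 and 10.7 CPM in LZ and 27.1, 53.04, 61.00 and 64.3 CPM in DZ libraries (-3.14 ± 0.17, adjusted p = 0.000106). The lowest DZ library was well above the highest LZ library. Rgcc, a regulator of cell cycle kinases, was 11.3, 15.3, 14.1 and 19.7 against 83.7, 72.5, 82.8 and 93.04 CPM (-2.48 ± 0.13, adjusted p = 9.83e-05), and Tifa, a TRAF6 adaptor, 13.9, 10.8, 8.25 and 16.6 against 60.00, 59.00, 52.04 and 76.5 CPM (-2.35 ± 0.12, adjusted p = 9.55e-05). Selenop, a selenium carrier, was the most abundant of the leaders after Gcsam, at 60.7, 68.99, 75.2 and 86.5 CPM in LZ and 298, 253, 290.2 and 345 CPM in DZ libraries (-2.03 ± 0.08, adjusted p = 5.63e-05). Lgr5, an R-spondin receptor best known from intestinal stem cells, was 9.10, 7.54, 10.7 and 11.1 against 30.1, 47.4, 37.5 and 40.2 CPM (-2.01 ± 0.17, adjusted p = 0.000584). Gcsam, a signalling protein of germinal centre cells, was 121, 123, 183 and 212 against 494, 506, 547 and 598 CPM (-1.78 ± 0.11, adjusted p = 0.00013). The 6 others were Pafah1b3, the predicted gene Gm12678, Ptgr1, Otub2, Myl4 and Itgb3, which were 3.28-fold to 3.97-fold higher in DZ with no overlap of the groups. Itgb3 (integrin beta 3) is also a platelet marker. The platelet list summed to 15.4 to 24.3 CPM in LZ and 46.3 to 85.8 CPM in DZ libraries, nearly all of it Itgb3 itself. Its other tested member, Itga2b, the integrin partner of Itgb3 in platelets, was also called higher in DZ (adjusted p = 0.0118), at 0, 0, 0.0671 and 0.0327 CPM in LZ and 0.783, 1.08, 1.39 and 0.59 CPM in DZ libraries. Pf4 and Ppbp were at 0.738 CPM or less in all 8 libraries and Treml1 was at 0. The part of platelets in the Itgb3 result was not tested.

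On the light zone side the 12 leaders were Ccr6, Cfp, Egr2, Hhex, Bhlhe40, Serpinb1a, Aldoc, Nfkbid, Ephx1, Snn, Cd83 and Egr1. Cfp (properdin), a positive regulator of complement, was 102, 109, 91.9 and 84.1 CPM in LZ and 11.8, 18.8, 17.3 and 11.1 CPM in DZ libraries (2.74 ± 0.13, adjusted p = 9.06e-05). Serpinb1a, a protease inhibitor, was 146, 145, 106 and 96.1 against 20.6, 35.9, 34.3 and 13.3 CPM (2.32 ± 0.22, adjusted p = 0.000787). Ephx1, an epoxide hydrolase, was 109.9, 121, 94.4 and 89.1 against 23.1, 30.1, 27.00 and 17.98 CPM (2.09 ± 0.10, adjusted p = 9.06e-05). For these 3 genes every LZ library was above every DZ library. The LZ values of Serpinb1a were higher in pools 1 and 2.

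Cytoskeletal genes were a further group with more members higher in LZ, at 18 of 39 tested against 4 higher in DZ, or 1 without pool 1 or 4 (median 0.21). Marcks, which links actin to the membrane, was 93.1, 92.5, 65.5 and 75.98 CPM in LZ and 17.1, 31.6, 30.2 and 20.99 CPM in DZ libraries (1.74 ± 0.20, adjusted p = 0.00183). Dock10, an exchange factor for small GTPases, was 266, 276, 210.1 and 261 against 76.8, 109, 78.8 and 91.95 CPM (1.51 ± 0.08, adjusted p = 0.000106). Every LZ library was above every DZ library for both genes. The FOXO1 and PI3K pathway had 6 of 28 called in each direction. That split rested on all 4 pools, since the number higher in DZ was 2 without pool 1 or 4 and 3 without pool 2 or 3, while that in LZ was 4 to 6, and both were 1 without the block. Akt1, the kinase downstream of PI3K, was 1.71-fold higher in DZ (adjusted p = 0.000167), while Klf2, a target that FOXO1 is known to activate, was 2.18-fold higher in LZ (adjusted p = 0.00763). The latter call was lost without the block (adjusted p = 0.118).

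Other lists had smaller numbers of calls, to be read against the 15.8% of all tested genes. Among 23 chromatin regulators, 2 were called higher in LZ and 3 in DZ (21.7%), with Ezh2, the Polycomb methyltransferase, at 139, 139, 172 and 164 CPM in LZ and 178, 161, 196 and 199 CPM in DZ libraries (-0.26 ± 0.05, adjusted p = 0.0196). The groups of Ezh2 overlapped, and its call was lost without pool 1 (adjusted p = 0.0625), pool 2 (0.0573), pool 4 (0.0842) and the block (0.181). Smarca4 (BRG1), an ATPase of chromatin remodelling, was 2.27-fold higher in DZ (adjusted p = 0.000196). Interferon-stimulated genes had 2 of 29 called (6.9%), both higher in LZ. For p53 and its targets, 3 of 21 (14.3%) were called, all higher in DZ, and Rrm2b, a ribonucleotide reductase subunit induced by p53, was 53.2, 47.3, 49.5 and 63.00 against 121, 96.8, 101 and 138 CPM (-1.09 ± 0.07, adjusted p = 0.000133). The mTORC1 and nutrient uptake list had 5 of 32 called higher in LZ and 2 in DZ (21.9%). Ddit4 (REDD1), an inhibitor of mTORC1, was among them at 58.2, 67.3, 35.7 and 40.2 CPM in LZ and 16.6, 17.4, 13.9 and 10.6 CPM in DZ libraries (1.76 ± 0.13, adjusted p = 0.000268). Replication-dependent histone genes, whose messages mostly lack poly(A) tails and have near-identical copies, had 2 of 19 called (10.5%), both higher in DZ. The list of immunoglobulin constant regions, which also holds the joining chain gene Jchain, had 2 of 13 called higher in LZ and 1, Jchain, in DZ (23.1%). The number higher in LZ was 0 without pool 2 and 0 without the block.

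Splicing regulators had small differences, with the 95% interval of 29 of 33 tested hnRNP, SR and related genes within 0.5 of 0. Of the 33, 7 were called higher in DZ and 1 in LZ. With 1 pool left out, the number higher in DZ was 2 without pool 1 or 2 to 6 without pool 3. Ptbp1, the gene floxed in all these mice, was 367, 356, 419 and 389.6 CPM in LZ and 416, 425, 449 and 487 CPM in DZ libraries. It was 1.16-fold higher in DZ with overlapping groups (adjusted p = 0.0319), and the call was lost without pool 1 (adjusted p = 0.0732), pool 2 (0.111), pool 4 (0.131) or the block (0.152). The paralogues Ptbp2 and Ptbp3 were not called, with 95% intervals of -0.71 to 0.10 and -0.28 to -0.02.

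The same contrast in cKO mice used other libraries, 4 per zone, and called 2079 of 14629 tested genes (14.2%), 1133 higher in LZ (7.74%) and 946 in DZ (6.47%). That number was 618 without pool 2, 1042 without pool 3, 1266 without pool 4 and 1679 without pool 1. Of the 2260 genes called in control mice and tested in cKO mice, 2211 had the same direction and 1354 were also called, which is 59.8% of the control calls and 65.1% of the cKO calls. None was called in opposite directions. The test of a difference in the zone effect between genotypes called none of 15789 genes, with 1013 at an unadjusted p under 0.05 and a smallest adjusted p of 0.14, while DESeq2 called 38 and the edgeR fit without replicate 3 called 1. Among the 170 called genes named by the rule, 168 had the same sign in cKO mice and 128 were called there. Both exceptions in sign had small differences in control mice, whose calls were lost without pool 1 and without pool 2. They were Tfrc, the transferrin receptor (0.47 in control, -0.06 in cKO), and Pdia6, a chaperone of the endoplasmic reticulum (0.38 and -0.01). Genes of MYC-driven growth had 16 of 41 called higher in LZ in control mice and 2 in cKO mice, with medians of 0.16 and 0.01. The list of cholesterol and fatty acid genes had 21 and 8 of 33, with medians of 0.48 and 0.25. As no gene passed the test of the difference, these counts do not show that the zones differ less in cKO mice. Mitotic medians were -0.45 in control and -0.73 in cKO mice for spindle and kinetochore genes.

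**Figure D5:**
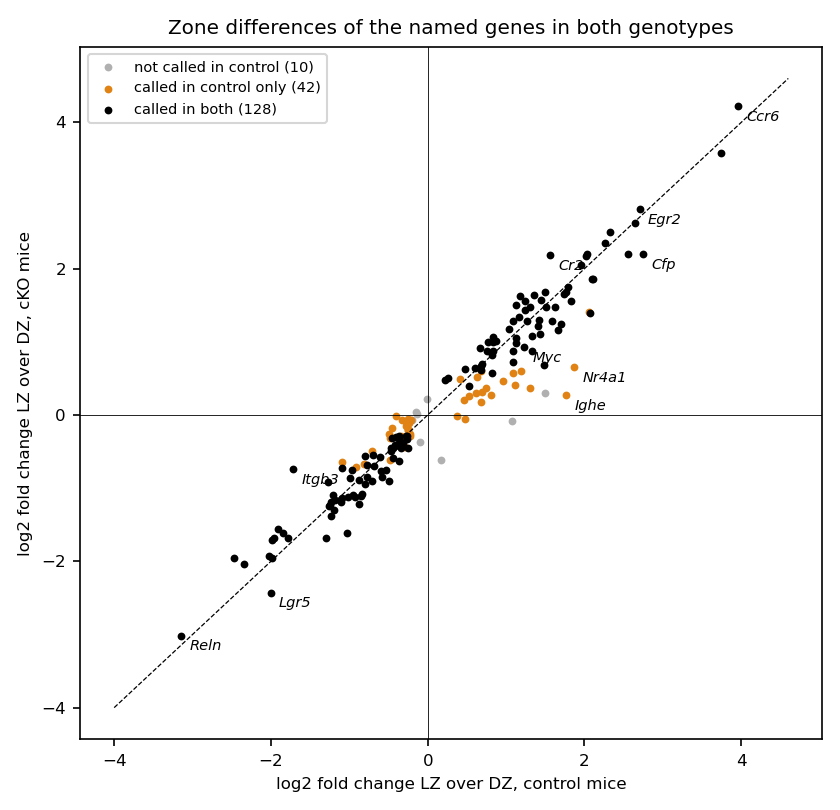
Log2 fold change (LZ over DZ, edgeR) of the 180 named genes in control mice (horizontal) and in cKO mice (vertical), with the dashed line marking equal values. Black points (128) were called in both genotypes, orange points (42) in control mice only and grey points (10) were not called in control mice; of the called genes 168 lie in the quadrants of equal sign.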

How the data were processed

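Messenger RNA was measured in 16 sorted libraries of the series, 8 of them from control mice. The authors made the libraries from 2 ng of RNA with SMART-Seq v4, per the labels' protocols. Reads were trimmed with Trim Galore 0.4.2, aligned with HISAT2 to GRCm38 and counted with HTSeq, per the submitters' processing notes. The deposited values are raw read counts per gene. The annotation, the aligner's and counter's versions and the use of strand are not known here, so overlapping and antisense genes cannot be told apart. The authors' summary lines, which name no gene (42.0% to 47.6% of all counts), were left out of library sizes.

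Genes were filtered with filterByExpr (minimum count 10), scaled by TMM and tested two-sided with edgeR 4.0.16 (R 4.3.3), with robust quasi-likelihood and the pool as a block. Adjusted p-values are Benjamini-Hochberg over all genes tested, and a gene was called at an adjusted p under 0.05. The zone difference was compared between genotypes and between sexes as interaction terms. Levels are CPM scaled by TMM, fold changes are LZ over DZ on the log2 scale, and 95% intervals come from the SE. The pairing follows the series' design text, by which both zones were sorted from the same enriched cells. Deviations from the group means correlated between libraries of the same number (r = 0.50 to 0.65) and each was closest to its own partner. No pair of libraries was a duplicate, with a chi-square per degree of freedom of at least 23.8. Libraries are pools of mice, so n counts pools.

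The gene lists and the named genes were chosen with earlier results of these data known. Named genes were the 12 called genes with the largest difference per direction (same sign in 4 pairs, mean log2 CPM of at least 4, no immunoglobulin genes), up to 4 called genes per direction in each list, and a set of anchors named whatever their result. Genes that are singled out as exceptions within a list, and the cell markers, were named after their values were seen. A table of gene names gave a symbol for 47224 of 47729 identifiers, and positions and promoters come from RefSeq GRCm38.p6. Intervals cover the spread between pools. Alternatives were other scalings, filters, tools (DESeq2 1.42.0, limma-voom of limma 3.58.1), fits without the block, with all 16 libraries, within 1 sex and without each pool. The fit was tested on simulated counts with 200 changed genes. Of the changed genes it tested, it recovered 38% at 1.5-fold, 64.4% at 2-fold and 65.3% at 3-fold. Of its calls, 6.19% were false. A gene that was not called may therefore still differ. A few genes that the rule names are not reported here.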

Additional observations from a re-analysis of the deposited data

Results flagged for a closer look

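In 12 of 148 groups of 4 libraries examined, 1 library stood far from the other 3 by Dixon's test, where chance alone flags about 1 in 20. Pool 2 accounted for 7 of them. Macrophage markers summed to 407 CPM in LZ library 2 and 427 CPM in DZ library 2, against 29.4 to 73.6 and 27.3 to 54.3 CPM in the other libraries of each zone. NK cell markers summed to 209 CPM in LZ library 2 against 32.5 to 62 CPM, and dendritic cell markers to 85.4 CPM in DZ library 2 against 63.2 to 65.5 CPM. In the same DZ library, Egr1 was at 52.1 CPM against 25.5 to 27.2 CPM and Bhlhe40 at 12.9 CPM against 7.77 to 8.37 CPM. Cd86 was lowest in LZ library 2, at 314 CPM against 361 to 370 CPM.

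DZ library 3 stood apart in plasma cell markers, which summed to 9120 CPM against 3680 to 3990 CPM, in the share of counts on immunoglobulin genes (6.87% against 2.41% to 3.15%) and in Bach2, at 231 CPM against 390 to 402 CPM. Gm12678 was at 42.7 CPM in DZ library 4 against 36.7 to 37.4 CPM, and Pafah1b3 at 74.8 CPM in LZ library 4 against 62.5 to 64.2 CPM. All 12 genes with the largest difference in either direction kept their zone order in every library, Egr1, Bhlhe40, Gm12678 and Pafah1b3 included.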

How the results depend on the processing

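Every gene called in control mice that an alternative tested kept its direction there. The alternatives reuse all or some of the libraries that gave the calls, so this is no independent evidence of direction. The 2264 calls (1185 higher in LZ and 1079 in DZ) became 1165 (641 and 524) without the replicate block, which shared 1154 genes (51%) with the paired result. They ranged from 1253 to 1716 with 1 pool left out (672 to 896 higher in LZ, 581 to 820 in DZ). Within 1 sex they fell to 792 in male pools (428 and 364) and 428 in female pools (237 and 191), where 2 pairs remain. The 484 calls at 2-fold or more became 322 in male and 213 in female pools. DESeq2 called 3199 genes. Changes of scaling moved the median of all genes by less than 0.1 on the log2 scale. In cKO mice the 2079 calls became 820 without the replicate block and 3214 with DESeq2, and ranged from 618 to 1679 with 1 pool left out. The interaction with genotype gave 0 calls in edgeR, 38 in DESeq2 and 0 to 1 with 1 pool left out, and that with sex 0, 3 and 0 to 6. Of 170 called named genes, 80 stayed called in each of the 15 alternatives that tested them. The values that turned sign belonged to genes not called: Mcl1 (-0.047 to 0.038 with 1 pool left out, 0.024 in male pools), Pcna (0.015 in female pools) and Prdm1 (-0.18 without the replicate block, -0.18 to 0.60 with 1 pool left out, -0.10 in limma-voom and -0.29 in female pools). The causes were not tested. Depth limits genes of low abundance, whose median SE was 0.563 at a mean log2 CPM of 2 or less.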

Other observations

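Gene families were grouped by the start of their symbols after the values had been seen, so their counts describe and do not test. Proteasome subunits (Psm symbols) had 16 of 38 tested genes called higher in DZ and none in LZ, with a median log2 fold change of -0.18. Of all tested genes, 7.54% were called higher in DZ, but abundant genes were called more often. At a mean log2 CPM of 6 to 8, 483 of 3004 genes were called higher in DZ, and above 8, 189 of 720. The families were not matched for level. Mitochondrial ribosomal proteins had 11 of 81 called higher in DZ and 1 in LZ (median -0.12). Their 14.8% called was near the 15.8% of all tested genes. Kinesins, motor proteins of which several act in the spindle, had 8 of 26 (30.8%) called higher in DZ and none in LZ.

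Solute carriers, the transporters of small molecules, had 34 of 209 tested genes called higher in LZ and 10 in DZ (21.1% called). Interleukin receptors had 8 of 27 called higher in LZ and 1 in DZ (33.3% called, median 0.56). Protein tyrosine phosphatases of the Ptpn and Ptpr families had 5 of 22 (22.7%) called higher in LZ and none in DZ. Zinc finger genes named Zfp were seldom called, at 21 of 325 (6.46%), against 15.8% of all tested genes. That comparison was not matched for level. The share called was 2.95% of all genes at a mean log2 CPM of 2 or less and 12.5% at 2 to 4. Of 14 genes of the mitochondrial genome, 1 was called, higher in LZ.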
